A study of Mus musculus with 4 samples.

Results

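Mmp7 and Mmp12 are the matrix metalloproteinase genes in the authors' deposited table of uterus genes that differed between pregnant mice kept under low oxygen (hypoxia) and under normal oxygen (normoxia, the control). They were taken from that table by gene name and make up 2 of its 903 genes. Neither is among the 854 genes of the matching ovary table (0 of 2 listed). Uterus and ovary were collected on embryonic day 3.5, close to the time of implantation, and the study asked how low oxygen affects that window. The exposure of the hypoxia group is placed at 72 hours after fertilization, and the sources used here do not give the oxygen level, the length of exposure, the strain or the age of the mice. Each tissue and condition is 1 library made from 3 pooled samples, so the variation between animals was not measured and none of the differences was checked in replicates. The tables give 1 log2 fold change per gene without expression levels or p-values, and sequencing depth is unknown. The numerator of the ratio is not named in them. A positive value is read here as a higher level in hypoxia, and every direction given depends on that assumption.

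Matrix metalloproteinases are zinc-dependent proteases that cut extracellular matrix and cell-surface proteins. They are made as inactive precursors, held shut by a cysteine in the propeptide that binds the catalytic zinc, and they are restrained by the tissue inhibitors of metalloproteinases. Mmp7, or matrilysin, is a product of gland and surface epithelium. It cuts matrix proteins such as fibronectin and laminin, sheds surface proteins such as E-cadherin, and in the mouse intestine it activates the antimicrobial alpha-defensins of Paneth cells. It lacks the hemopexin-like domain that most members of the family carry. Mmp12, or macrophage elastase, is named for its main source and for its ability to break down elastin. Remodelling of the endometrial matrix accompanies the preparation for implantation.

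Both proteases share the catalytic zinc site, in which 3 histidines hold the zinc and a glutamate takes part in catalysis. The codons of this site are shown because both genes encode it. They were read from the GENCODE M21 transcripts of GRCm38, 5′ to 3′, and the capitals mark the codons of the 3 histidines and the glutamate.
Mmp7, residues 217 to 227: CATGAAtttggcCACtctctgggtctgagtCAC
Mmp12, residues 222 to 232: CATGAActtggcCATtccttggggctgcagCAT
The 2 stretches were identical at 24 of 33 bases and, once translated, at 9 of 11 residues. Mmp7 encodes 267 residues in 6 exons, and no other of the 23 mouse family members examined had a shorter protein. Mmp12 encodes 473 residues in 10 exons.

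The data on each gene are 1 ratio. After division by a factor shared by all uterus genes, 0.995, each listed ratio could be written with whole numbers above and below the line, called terms here, to within a relative tolerance of 5e-14. A term was taken as a read count plus 1, an inference that no source states, and a term less 1 is called the implied reads. A factor common to both terms is lost when a ratio is reduced, so the true counts could be larger.

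Mmp7 had 124 implied reads in the hypoxia library and 6 in the normoxia library, from terms of 125 and 7. The exact Poisson intervals of 95% were 103 to 148 reads in hypoxia and 2.20 to 13.1 reads in normoxia. The intervals of the 2 libraries did not overlap. The authors' deposited table gave Mmp7 a log2 fold change of 4.15, which is a 17.8-fold higher level in hypoxia. The counting interval for that fold, exact Clopper-Pearson at 95% on the implied reads, ran from 9.19 to 57.1. Such intervals cover counting error only and say nothing of variation between mice. If a common factor of 2 had been lost, the implied reads would be 249 and 13 and the interval 10.9 to 36.3.

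Mmp12 had 23 implied reads in the hypoxia library and 4 in the normoxia library, from terms of 24 and 5. The exact Poisson intervals were 14.6 to 34.5 reads in hypoxia and 1.09 to 10.2 reads in normoxia, which again did not overlap. The log2 fold change of Mmp12 in the authors' deposited table was 2.26, a 4.78-fold higher level in hypoxia. Its counting interval for the fold ran from 1.96 to 22.8. With a lost common factor of 2 the implied reads would be 47 and 9 and the interval 2.52 to 12.1. In bulk tissue a larger number of cells of one type and more RNA per cell cannot be told apart, for either gene.

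**Figure D1:**
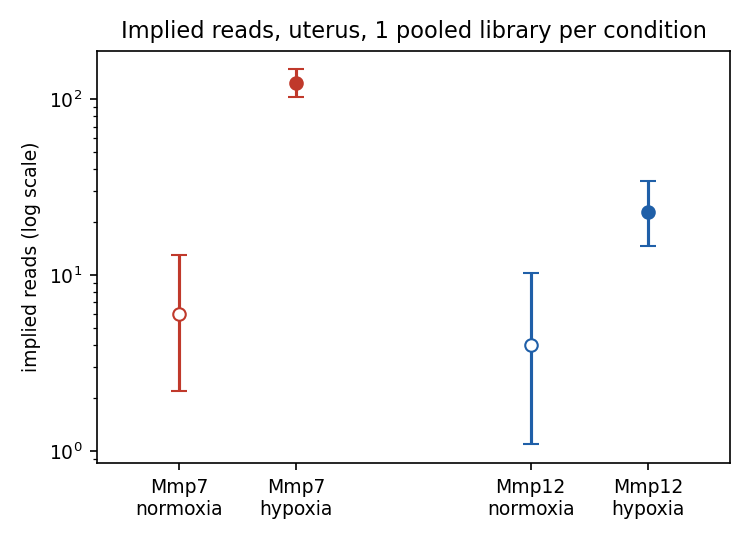
Implied reads of Mmp7 (red) and Mmp12 (blue) on a log scale in the normoxia (open) and hypoxia (filled) uterus libraries, 1 pooled library each. Bars are exact Poisson intervals of 95% and cover counting error only. Mmp7 goes from 6 to 124 implied reads and Mmp12 from 4 to 23.

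The ratio of Mmp7 was larger than that of Mmp12 by 1.90 on the log2 scale in the authors' deposited table, or 3.72 times. Counting error alone left this difference in size unresolved. The counting intervals of the 2 folds overlapped between 9.19 and 22.8. The ratio of the 2 read ratios had a conditional estimate of 3.55 with an exact interval of 0.683 to 16.4, which includes 1. In normoxia the 2 genes had similarly few implied reads, 6 and 4, with overlapping Poisson intervals. In hypoxia they had 124 and 23, with intervals that did not overlap. Per kilobase of annotated transcript, the level of Mmp7 was 5.62 implied reads in normoxia and 116 in hypoxia. That of Mmp12 was 1.11 and 6.38 implied reads per kilobase. Mmp7 was the higher of the pair per length in both libraries. In normoxia that order rests on 6 and 4 implied reads, and counting error leaves it unresolved. The Mmp12 transcript used has 3607 bases and the Mmp7 transcript 1068, and which transcripts the tissue held was not measured. Per kilobase of coding sequence, which is less unequal in length, the levels were 7.46 and 154 for Mmp7 and 2.81 and 16.2 for Mmp12. These levels assume that no common factor was lost in either gene.

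Both values came from the contrast that selected the genes, so their place in the table is a description. The uterus table holds 491 higher and 412 lower genes, and higher genes were 54.4% of those listed. The values of Mmp7 and Mmp12 were both positive. The median of the higher genes in the authors' deposited table was 2.58, with Mmp7 above it and Mmp12 below it. By signed deposited value Mmp7 ranked 16 and Mmp12 ranked 402 of 903. By absolute value, which does not depend on the sign, they ranked 20 and 620. Of the 15 genes above Mmp7 by signed value, 13 had a normoxia term of 1, which by the reading used here is 0 reads, so the size of their ratios is not fixed. By the lower bound of the counting interval for the signed fold Mmp7 ranked 10 and Mmp12 ranked 154. With 5 reads added to each library in place of 1, Mmp7 had a log2 value of 3.55 and ranked 5 by signed and 8 by absolute value, and Mmp12 had 1.63 and ranked 128 and 206. The deposited value of Mmp12 therefore lies above the authors' threshold of 2, and the value with 5 added reads lies below it. The ranks with 5 added reads are among the 903 listed genes. Unlisted genes could not enter that order, so the change in rank is read no further. The lowest positive value in the authors' deposited table was 2.01, and genes below the threshold are not in the table. The counting interval excluded a ratio of 1, in either direction, for 54.2% of listed genes, Mmp7 and Mmp12 among them. All listed genes had passed the threshold on these same ratios. Exclusion of 1 therefore depends largely on the number of reads and is a description only.

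**Figure D2:**
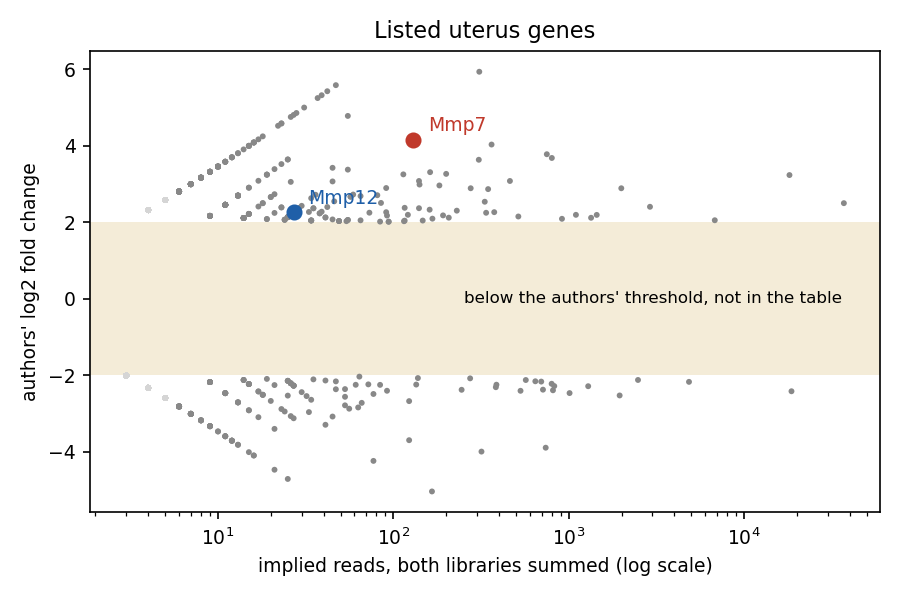
Authors' log2 fold change of the 903 listed uterus genes against implied reads summed over both libraries (log scale), each point 1 gene. Dark points have a counting interval that excludes a ratio of 1, pale points do not, and the shaded band is the range below the authors' threshold. Mmp7 stands at 4.15 with 130 implied reads and Mmp12 at 2.26 with 27.

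Genes with values close to the pair were looked up among those whose counting interval excluded 1, leaving out unnamed gene models, immunoglobulin genes and small RNA genes. By that rule the 5 nearest to Mmp7 were Lypd2, Adm2, Syce1, Lcn2 and Mrgprx2. Lcn2, which encodes the secreted siderophore-binding protein lipocalin 2, had 4.03 in the authors' deposited table, on 343 implied reads in hypoxia and 20 in normoxia. Its counting interval of 10.9 to 28.3 lay inside that of Mmp7. The other 4, among them the peptide hormone gene Adm2, had 15 to 17 implied reads in hypoxia and 0 in normoxia, so that only a lower bound of their fold can be given, 3.57 to 4.11. Of the genes left out, Igkv8-30, Ighv10-3 and Igkv3-10 were nearer to Mmp7 than Lcn2 was, each with 0 implied reads in normoxia. By the same rule the 5 nearest to Mmp12 were Itprid1, Cyp26a1, Ugt2b34, Cldn2 and Upk3bl, all within 0.02 of its log2 value. Cyp26a1, the gene of a retinoic acid-clearing enzyme, had 312 and 64 implied reads and an interval of 3.70 to 6.45. Cldn2, which encodes a tight-junction protein, had 280 and 58 implied reads and an interval of 3.61 to 6.49. Mmp12 had the fewest implied reads and the widest interval of these 6 genes. Of the genes left out, Gm36684 and Mir135a-2 had the same 23 and 4 implied reads as Mmp12, and Igkv12-46 and Gm24103 were nearer than Upk3bl. Likeness here is the distance between log2 fold changes in 1 comparison.

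**Figure D3:**
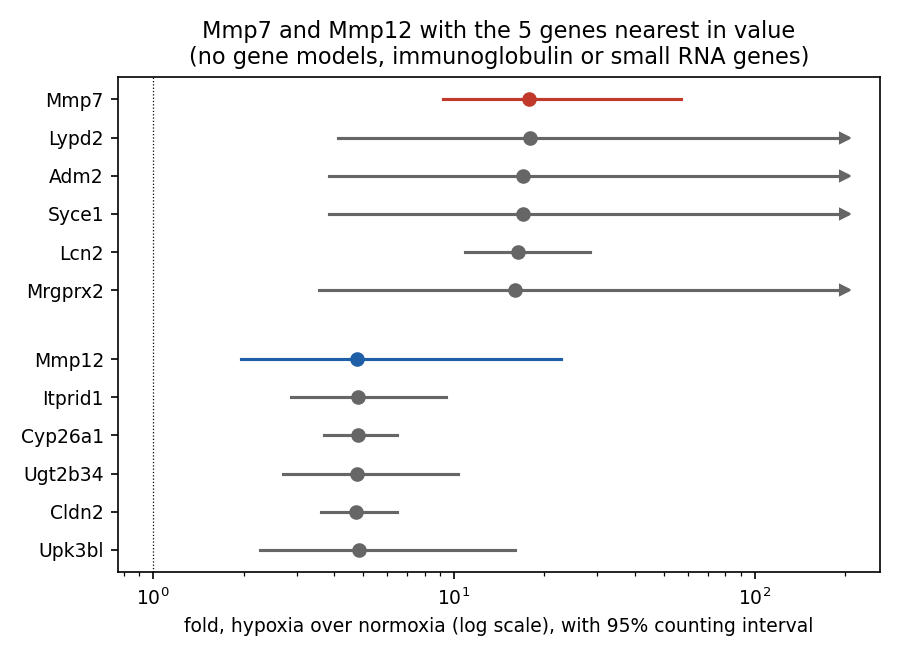
Fold, hypoxia over normoxia (log scale), of Mmp7 and Mmp12 with the 5 genes nearest to each in value, leaving out unnamed gene models, immunoglobulin genes and small RNA genes. Points are the authors' folds, bars are 95% counting intervals from the implied reads, arrows mark intervals with no upper bound, and the dotted line is a fold of 1. The interval of Mmp7, 9.19 to 57.1, overlaps that of Mmp12, 1.96 to 22.8.

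Of the 23 genes of the metalloproteinase family, Mmp7 and Mmp12 were the 2 listed in the uterus, and 0 of the 23 were listed in the ovary. Across all annotated gene names, 1.63% were listed in the uterus and 1.54% in the ovary, a background that includes genes too low to be listed. Because the pair was chosen from this table, the count of 2 is read no further. Absence from a table is read here as a change below the authors' threshold, although a gene could be missing for another reason. Genes with an unchanged level and genes with few or no reads cannot be told apart there. The gelatinases Mmp2 and Mmp9, the stromelysins Mmp3 and Mmp10 and the membrane-type protease Mmp14 are among the genes not listed in either tissue. None of 7 inhibitor genes, Timp1 to Timp4, Reck, A2m and Pzp, was listed in the uterus (0 of 7). A2ml1, an A2m-like gene that is not among the 7, had 2.98 in the authors' deposited table on 126 and 15 implied reads. None of 27 ADAM and ADAMTS protease genes was listed in the uterus (0 of 27). The same held for 18 genes of the plasmin, cathepsin and elastase systems (0 of 18).

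Genes for elastic fibres, for other matrix and for matrilysin substrates were also examined. Across all annotated gene names, 1.63% were listed in the uterus and 1.54% in the ovary. Lists of this length would hold few entries at those rates. Of 19 elastic fibre genes 1 was listed, Mfap4, which encodes a microfibril-associated protein, at 2.50 in the authors' deposited table on 31500 and 5557 implied reads. Elastin itself, Eln, was not listed. None of 26 basement membrane and interstitial matrix genes (0 of 26) and none of 19 genes for matrilysin substrates (0 of 19), among them E-cadherin, Fas ligand and 8 alpha-defensins, was listed in the uterus. In the ovary, 0 members of these 3 lists were listed.

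Wnt target genes, and genes that act upstream of the pair in other settings, were looked up next. The background is the same 1.63% of annotated gene names listed in the uterus. Mmp7 is a known target of Wnt signalling and stands on the list of 17 Wnt targets. Because it was chosen from this table, its entry there is not read as a result. The other genes of that list, among them Axin2, Lgr5 and Lef1, were not listed in the uterus. None of 16 genes for AP-1, PEA3 and other ETS or Maf transcription factors was listed (0 of 16). AP-1 and PEA3 factors act on metalloproteinase promoters. Of 15 cytokine genes linked to macrophage elastase, 1 (6.67%) was listed in the uterus, Il13, a type 2 cytokine that induces Mmp12 in the mouse lung. Il13 had 3.16 in the authors' deposited table, on 8 implied reads in hypoxia and 0 in normoxia, with a lower bound of 1.70 for the fold. In the ovary the 1 listed gene of this group was Il4, at 2.10 in the authors' deposited table on 8 and 1 implied reads.

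Markers of the cell types that make each protease were set beside them, and no marker list was tested. None of 28 macrophage markers, among them Adgre1, Cd68, Csf1r and Mrc1, was listed in the uterus (0 of 28), against the background of 1.63%. A list of this length would hold few entries at that rate, and changes below the threshold are not seen. None of 20 epithelial markers such as Epcam, Cdh1, Krt8 and Krt18 was listed either (0 of 20). Of 18 uterine gland markers 4 were listed, 2 higher and 2 lower. The higher ones were Mmp7 itself and Guca2a, which encodes the peptide guanylin, at 2.32 in the authors' deposited table on 4 and 0 implied reads, with a counting interval that included 1. The lower ones were the protease inhibitor genes Spink1 and Wfdc3. The authors' deposited table gave Spink1 -2.12 on 106 implied reads in hypoxia and 463 in normoxia. It gave Wfdc3 -2.22 on 141 and 658 implied reads. Other gland markers, including Foxa2, Prss28 and Lif, were not listed.

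Markers of other immune cells were listed in the same direction as the pair. The marker lists were chosen with earlier results of these data known, so their counts beside the background are descriptions only. Of 23 neutrophil markers 8 were listed and all 8 were higher, where 0.886% of annotated gene names were listed higher, with a median of 2.68 in the authors' deposited table against 2.58 for all higher genes in the table. The counting interval excluded 1 for 7 of the 8, and included it for Fpr2, on 4 and 0 implied reads. The 8 included Lcn2 and Ltf, the lactoferrin gene, which uterine epithelium also makes, and Trem1 and Stfa2l1. The neutrophil metalloproteinase genes Mmp8, Mmp9 and Mmp25, which are on the same list, were not listed. Nor were its markers Ly6g, Mpo and Csf3r. Of 14 dendritic cell markers 2 were listed, both higher. The authors' deposited table gave the chemokine receptor gene Ccr7 2.67 on 50 and 7 implied reads, and the chemokine gene Ccl17 2.17 on 76 and 16. Stromal, smooth muscle and embryo markers had 0 listed members of 16, 10 and 13. Squamous epithelium had 1 of 23, the keratin gene Krt78, lower, on 0 and 13 implied reads. Oviduct had 1 of 10, the ciliary dynein gene Dnah9, higher, on 11 and 0 implied reads. Pancreatic acinar and Paneth cells had 1 of 16, the carboxypeptidase gene Cpa1, lower, on 0 and 25 implied reads. The listed endothelial markers Sele and Procr were lower (2 of 13), where 0.743% of annotated gene names were listed lower. For Mmp7 and Mmp12, the part of cell composition in the ratios was not tested.

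Mmp12 and Mmp7 lie in a cluster of metalloproteinase genes on mouse chromosome 9. On GRCm38, the assembly also called mm10, Mmp12 (ENSMUSG00000049723.14) spans 7344381 to 7369499 and Mmp7 (ENSMUSG00000018623.9) spans 7692090 to 7699585, both on the + strand. The cluster runs from Mmp13 to Mmp7 over 427 kb, from 7272514 to 7699585. It holds 13 annotated genes, of which 10 are metalloproteinase genes. Mmp12 and Mmp7 are separated by 323 kb and by 7 other metalloproteinase genes, Mmp1b, Mmp3, Mmp1a, Mmp10, Mmp8, Mmp27 and Mmp20. None of those 7, nor Mmp13, was listed in the uterus, so 8 of the 10 were not listed. On the whole of chromosome 9, 44 genes (1.54%) were listed in the uterus, 20 of them higher.

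**Figure D4:**
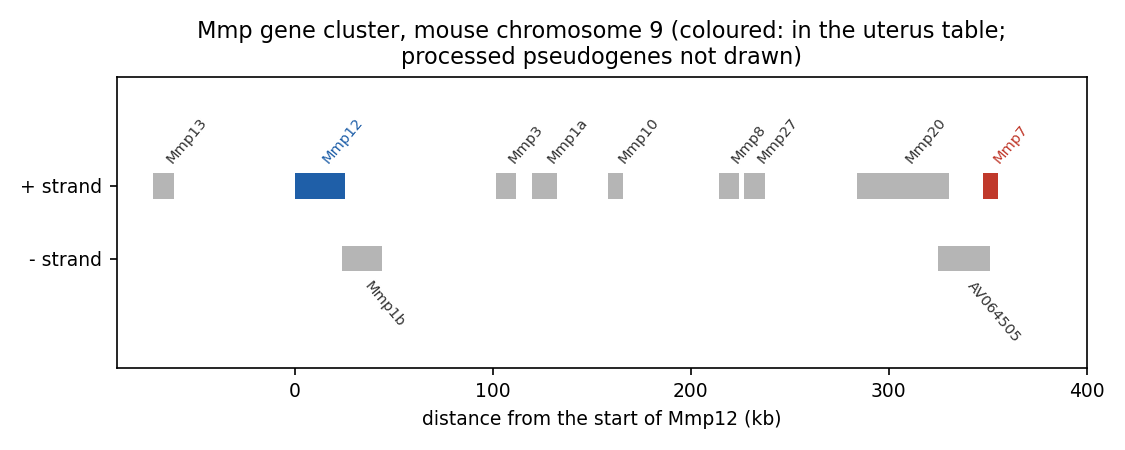
Annotated genes of the metalloproteinase cluster on mouse chromosome 9 by strand, drawn to scale against distance from the start of Mmp12 (kb), with processed pseudogenes left out. The coloured genes, Mmp12 and Mmp7, are the 2 in the uterus table, and the 8 other metalloproteinase genes are grey. The antisense gene AV064505 crosses Mmp7, and Mmp1b crosses the end of Mmp12.

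Each gene overlaps a gene on the other strand. The antisense gene AV064505 covers 3542 bases of Mmp7, with a run of 124 transcript bases in common, and Mmp1b covers 1261 bases at the 3′ end of Mmp12. The library kit keeps strand, but the sources used here do not say whether counting used it. The overlap with Mmp1b is one of gene spans. On the opposite strand, the longest run in common with the Mmp12 transcript was 36 bases, with Gm48939, and Mmp1b was not among the 5 longest. Without strand, reads in bases that transcripts of both strands share could not be assigned. Neither AV064505 nor Mmp1b was listed in the uterus. The longest identical run that the Mmp7 transcript shares on the same strand with a transcript of another gene was 20 bases, with Stk38, and for Mmp12 it was 37 bases, with Phactr2. No other metalloproteinase gene was among the 5 longest matches of either.

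The sequence before the start sites is shown because the pair shares a short motif there. The sequences are from RefSeq on GRCm38.p6, + strand, 250 bases ending just before the start, with the AP-1 letters TGANTCA in capitals. AP-1, the dimer of Fos and Jun proteins, binds such letters. RefSeq gives 2 starts for each gene. The Mmp7 window lies upstream of the gene, chr9:7691840-7692089.
Mmp7: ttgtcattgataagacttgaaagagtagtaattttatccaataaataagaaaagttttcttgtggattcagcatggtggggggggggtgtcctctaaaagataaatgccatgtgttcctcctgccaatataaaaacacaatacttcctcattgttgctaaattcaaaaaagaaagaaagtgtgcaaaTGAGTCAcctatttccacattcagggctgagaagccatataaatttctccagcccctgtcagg
The Mmp12 window lies before the start at 7347374, chr9:7347124-7347373, within the gene, in an intron of transcripts that start farther upstream.
Mmp12: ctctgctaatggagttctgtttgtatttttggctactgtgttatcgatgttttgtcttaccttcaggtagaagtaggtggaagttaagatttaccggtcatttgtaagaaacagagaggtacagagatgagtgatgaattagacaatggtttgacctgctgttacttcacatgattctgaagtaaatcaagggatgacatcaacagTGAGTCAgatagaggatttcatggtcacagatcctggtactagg
Counted back from the start, the motif begins at position -63 from the start of Mmp7 and at -44 from that of Mmp12. The second window of each gene held no such letters. Among all 32851 RefSeq windows of this length, 6.75% held TGANTCA, a palindrome that reads alike on both strands.

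The motif is not particular to the listed pair. Of the 10 metalloproteinase genes in the cluster, 8 held it, and 6 of those 8 were not listed in the uterus. These counts are per gene, with any of its windows counted, whereas the share of 6.75% is per window. These sites are shown with 10 bases on either side so that the listed genes can be compared with unlisted neighbours.
Mmp7: agtgtgcaaaTGAGTCAcctatttcca
Mmp12: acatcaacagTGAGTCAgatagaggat
Mmp3: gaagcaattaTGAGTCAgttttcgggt
Mmp10: agcacccatgTGAGTCAtgcttagtga
Mmp1a: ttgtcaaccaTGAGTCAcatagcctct
Mmp1b: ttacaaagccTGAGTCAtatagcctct
Mmp13: cccaaagtggTGACTCAtcactatcat
Mmp20: atttgagacaTGAATCAtcacttacag
Mmp7 and Mmp12 carry the same 7 letters, TGAGTCA, as Mmp3, Mmp10, Mmp1a and Mmp1b. Mmp13 carries TGACTCA, which is the same site read on the other strand, and Mmp20 carries TGAATCA. The TATA letters TATAAA, searched on both strands and held by 12.4% of all windows, occur at -123 and -26 in the Mmp7 window and not in the Mmp12 window. The PEA3 letters AGGAAG, held by 29.5% of windows, occur in the Mmp7 window at -108, on the other strand, and not in the Mmp12 window shown. A low-oxygen factor core, ACGTG, held by 16.6% of windows on either strand, was in neither window shown, nor were the TCF/LEF letters CTTTGA, held by 13.8%. The second RefSeq window of Mmp7, which ends before a start at 7692341 and lies within the gene with 152 of its 250 bases in annotated exons, held ACGTG on both strands, at -50 and -49 in overlapping letters, and CTTTGA on the other strand at -246. That window also held AGGAAG at -142. The second RefSeq window of Mmp12 ends before a start at 7344397, upstream of the gene apart from 16 bases in annotated exons. It held AGGAAG on the other strand at -87 and none of the other letters searched. Of the 21 windows of 18 family genes, 2 held ACGTG, in Mmp7 and Mmp14. CTTTGA was held by 3 of the 21, in Mmp7, Mmp1a and Mmp21. A match is a description of the letters, and no binding was measured.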

How the data were processed

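RNA was extracted with ISOGEN II, polyadenylated RNA was captured and strand-keeping libraries were built, per the labels' protocols. The build mm10 and the tools DESeq2 2.11.40.7, HTSeq 0.9.1, HISAT2 2.2.1 and FastQC 0.73 are named, without options, per the submitters' processing notes. The deposited values are log2 fold changes, per the file headers, cut by the authors at an absolute value of 2. With 1 library per group no test was run.

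The shared factor was set by reading the commonest value of a table as 1 to 4, and terms were then found by continued fractions; these steps were tested on simulated data. Genes were matched by symbol to GENCODE M21, with 55418 gene names. Named genes were the pair, every listed member of 10 pathway lists, up to 4 of each of 12 marker lists, and, without unnamed gene models, immunoglobulin genes and small RNA genes, the 5 nearest in value. Any further gene was picked with its value in view. Genes that were named as not listed are examples from those lists. The members and lists were chosen with earlier results of these data known. Identical runs were searched with BLAST 2.17.0. Python 3.11.15, NumPy 2.4.6, pandas 2.3.3, SciPy 1.17.1, Biopython 1.88 and matplotlib 3.10.9 were used.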

Additional observations from a re-analysis of the deposited data

How the results depend on the processing

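The signs of Mmp7, Mmp12 and of their difference were the same under every alternative run. For either gene the sign could not change, because these settings rescale the same implied reads. None of them carries counting error, which left the difference unresolved, with an interval of 0.683 to 16.4 for the ratio of read ratios. The log2 value of Mmp7 lay between 3.55 (5 added reads) and 4.36 (none added), that of Mmp12 between 1.63 and 2.52 under the same settings, and their difference between 1.85 and 1.93. Values without the shared factor were 4.16 for Mmp7 and 2.26 for Mmp12. Doubled terms with 5 added reads, chosen after seeing the data, gave 3.81 and 1.89. At a stricter threshold of 3, Mmp7 alone was left, so 1 family member, 1 gland or epithelial marker and 1 gene of the chromosome 9 cluster remained listed, against 2, 4 and 2. When only genes whose counting interval excluded 1 were kept, the counts were 2, 3 and 2. The counts of 0, for macrophage markers in the uterus and for the family in the ovary, could not change under these settings, which only remove genes. No paired analysis was possible because each group is 1 pooled library, and no replicate could be left out. The direction of every value depends on an unstated sign, and few reads limit Mmp12.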
